A study of Mus musculus with 24 samples.

Results

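The comparison described here is that of cultured mouse oligodendrocytes kept with 30 mM ethanol against their own controls, in 12 of the 24 wells sequenced in the study. It covers 6 ethanol wells and 6 control wells of experiment 1, chosen by their labels, and every gene counted in them. Cortical cells of C57BL/6J pups, aged 5 to 7 postnatal days, were the source, and oligodendrocytes were isolated with a magnetic antibody against O4, a surface antigen of immature oligodendrocytes. They were grown on poly-D-lysine and laminin, differentiated for 3 days mainly with triiodothyronine, the active thyroid hormone, and then kept for 3 days with 30 mM ethanol or without ethanol. Control plates stood in a separate incubator, so an effect of ethanol and one of the incubator cannot be told apart. Transcripts were counted by 3′ tag sequencing, which reads a stretch near the 3′ end of each transcript. The other 12 wells, with 10 mM ethanol and their controls, belong to experiment 2 and are used only to ask whether a change differed between the experiments. The wells are labelled as biological replicates, but the labels do not say whether they came from separate animals, so p-values measure the spread between wells.

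Oligodendrocytes wrap axons in myelin, a stack of membrane rich in cholesterol and in proteins such as myelin basic protein, and thyroid hormone drives their precursors to leave the cell cycle and to express myelin genes. An O4 sort from early postnatal cortex can carry along astrocytes, microglia, vascular cells and fibroblasts. Ethanol is oxidised by alcohol dehydrogenases, by catalase and by a cytochrome P450, and the acetaldehyde formed is cleared mainly by the mitochondrial aldehyde dehydrogenase Aldh2.

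Total counts ran from 1218861 to 1688867 in the ethanol wells and from 1227777 to 1817028 in the controls, and the difference of the means was -152370 (exact permutation test, two-sided p = 0.203, and 0.203 after adjustment over 3 tests, n = 6). At these depths 3 counts, taken as the floor, were worth 1.65 to 2.46 CPM (counts scaled to the size of each library), and floors cover counting error only. Genes of the mitochondrial genome took 4.09% ± 0.43 of counts (SD, n = 6) with ethanol and 3.32% ± 0.33 without it (exact permutation test, two-sided p = 0.00866, and 0.026 after adjustment over 3 tests). In a principal component analysis the first component took up 28.6% of the variance. On it, ethanol replicates 1 and 2 scored -9.63 and -10.2, among the controls (-25.0 to 4.57), while ethanol replicates 3 to 6 scored 20 to 27.8. The second component, with 12.9% of the variance, held every ethanol well (0.507 to 25.1) above every control (-21.1 to -0.189). Ethanol replicates 1 and 2 scored highest on it, at 25.1 and 17.6. Replicates 1 and 2 were also the most deeply sequenced ethanol wells, and the part of depth in the split on the first component was not tested. Ethanol replicate 1 stood apart in its myelin genes, so every comparison is also given without it where that matters, and the counts that moved most without replicates 1 and 2 are in the closing section.

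The label of oligodendrocytes was checked against marker lists. Of 30 myelin and mature oligodendrocyte genes 28 were measured well enough to test, with a summed level of 6586 to 7691 CPM in the controls. Astrocyte genes were also present, 22 of 24 tested, with a summed level of 12430 to 14800 CPM in the controls and 15520 to 19430 CPM with ethanol. Microglial genes summed to 304 to 498 CPM in the controls and 329 to 501 CPM with ethanol (13 of 20 tested), and the defining marker P2ry12 had 12 and 11 counts over the 6 wells of each group. Endothelial genes summed to 158 to 187 CPM in the controls and 156 to 176 CPM with ethanol (7 of 15 tested), and Cldn5, a tight junction gene of brain endothelium, was listed at 0 in all 12 wells. The replication gene Fen1 was listed at 0 as well, and the ribosomal protein gene Rpl24 had 25 and 24 counts over the 6 wells of each group, so a 0 in the table does not by itself show that a transcript was absent. Pericyte and fibroblast genes summed to 608 to 873 CPM in the controls and 465 to 533 CPM with ethanol (16 of 22 tested). Neuronal genes summed to 599 to 656 CPM in the controls and 599 to 700 CPM with ethanol (10 of 16 tested). In bulk counts, fewer cells of a type and less RNA per cell cannot be told apart.

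The comparison asked which transcripts differed at the high ethanol concentration. Among the genes that fell were 11 of 18 of the contractile actin cytoskeleton, 17 of 28 of DNA replication and 21 of 30 of mitosis, with none that rose, and 16 of 28 antioxidant genes, with 2 that rose. In the other direction 12 of 28 myelin genes, 10 of 22 astrocyte genes and 7 of 8 mitochondrial genome transcripts rose and none fell. Of 13235 genes tested, 1280 (9.67%) passed the quasi-likelihood test of edgeR at an adjusted p of 0.05, and 400 of them were higher (3.02%) and 880 lower (6.65%) with ethanol. Over all genes tested the median log2 fold change was 0.02, and 59 of the genes that passed changed at least 2-fold, 12 of them higher and 47 lower. The 6 ethanol wells lay entirely above or below the 6 control wells for 598 genes (4.52%), of which 533 also passed. Without ethanol replicate 1, 1563 of 13551 genes passed (11.5%), 557 higher (4.11%) and 1006 lower (7.42%), and 1141 of the 1280 were among them. The share of higher genes among those that passed was 31.2%, and it was 44.2% with upper quartile scaling and 42.3% with the share of counts in genes too low to test, the low-gene share, as a covariate. That covariate and the total count of each well, both of which follow depth, are the covariates named below.

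**Figure D1:**
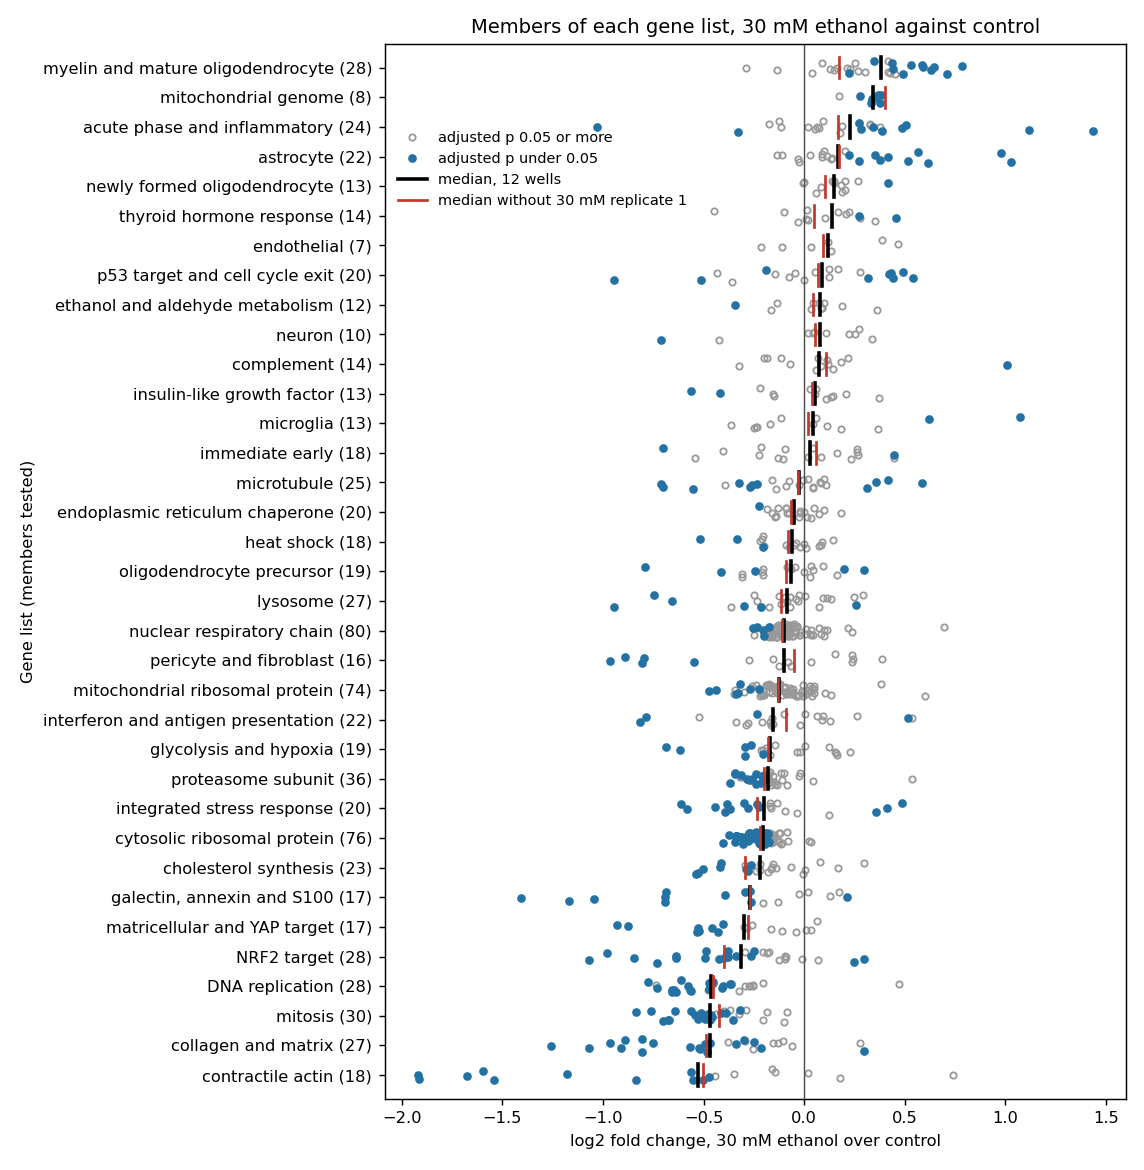
Log2 fold change of 30 mM ethanol over control (horizontal axis) for every tested member of 35 gene lists, 1 point per gene and the number tested in brackets. Filled points passed an edgeR adjusted p of 0.05, and vertical bars mark the median over 12 wells (black) and without ethanol replicate 1 (red). The contractile list has the lowest median, -0.53, and the myelin list the highest, 0.38, but without replicate 1 it was 0.17 and the mitochondrial genome list was the highest, 0.40.

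Genes of the contractile actin apparatus had the lowest median change of the 35 lists. These genes encode smooth muscle actin, the myosin light chain and the calponins, transgelins and tropomyosins that bind actin filaments, and in brain they are best known from vascular smooth muscle cells, pericytes and myofibroblasts. Of 22 listed genes 18 were tested, 11 fell and 0 rose, with a median log2 fold change of -0.53. In all 11 the ethanol wells lay below every control well, as they did for 456 of all 13235 tested genes.

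Myl9, a regulatory myosin light chain, ran from 91.0 to 138 CPM with ethanol (median 111) and from 271 to 359 CPM in the controls (median 334). Its log2 fold change was -1.54 (edgeR adjusted p = 1.66e-17, SE 0.0854), the smallest p of all genes. Acta2, smooth muscle actin, ran from 74.2 to 169 CPM with ethanol (median 120) and from 292 to 410 CPM in the controls (median 377), a log2 fold change of -1.60 (edgeR adjusted p = 1.03e-14, SE 0.11). No ethanol well reached the lowest control well for either gene. Cnn1, calponin 1, ran from 17.4 to 32.4 CPM against 83.8 to 114 CPM, and Cnn2, a calponin found in many cell types, from 79.0 to 142 CPM against 228 to 277 CPM. Their log2 fold changes were -1.91 (edgeR adjusted p = 7.6e-16, SE 0.122) and -1.18 (edgeR adjusted p = 9.56e-14, SE 0.0872). Tagln, transgelin, fell by 1.68 on the log2 scale, from a median of 59.0 to 17.7 CPM. Tpm2, a tropomyosin, had the largest change of the list, -1.92 (edgeR adjusted p = 7.83e-08, SE 0.233). Its ethanol wells held 3.99 to 18.8 CPM, with replicate 4 the highest, and its controls 22.2 to 60.1 CPM. Tagln2, a transgelin relative outside the list, fell by 0.85, with 117 to 149 CPM in the ethanol wells and 210 to 253 CPM in the controls. Myh11 and Des, which mark mature smooth muscle, had 9 to 18 counts over the 6 wells of each group and were not tested.

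**Figure D2:**
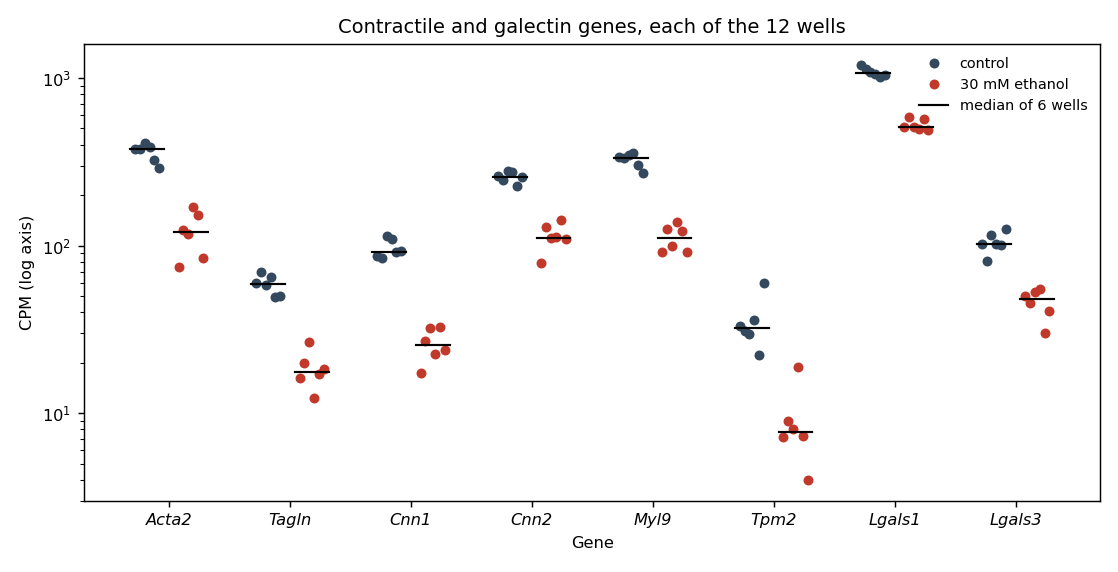
CPM on a log axis for 6 contractile genes and 2 galectins in each of the 12 wells, with the median of each group as a bar. For all 8 genes every ethanol well lies below every control well.

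Many contractile genes carry CArG boxes, the sites read by serum response factor, close to their start. The RefSeq promoters (GRCm38.p6) of the members were searched for CArG boxes on both strands in the 250 bases before the start. A CArG box was present in 2 of the 10 contractile genes that fell and have a promoter entry (20%), in 3 of all 17 tested contractile genes with an entry (17.65%), in 1.39% of the 9692 tested genes with an entry, and in 1.62% of all 27025 promoters. The 2 promoters are shown because they hold these matches, which are in capitals and begin 161 bases before the start of Myl9 and 56 bases before that of Cnn2.
Myl9 (chr2:156775214-156775463, plus strand): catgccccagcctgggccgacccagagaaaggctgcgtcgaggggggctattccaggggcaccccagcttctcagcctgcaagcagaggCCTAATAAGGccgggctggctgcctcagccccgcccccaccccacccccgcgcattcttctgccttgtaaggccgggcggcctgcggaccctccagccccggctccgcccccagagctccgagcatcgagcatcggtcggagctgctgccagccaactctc
Cnn2 (chr10:79988350-79988599, plus strand): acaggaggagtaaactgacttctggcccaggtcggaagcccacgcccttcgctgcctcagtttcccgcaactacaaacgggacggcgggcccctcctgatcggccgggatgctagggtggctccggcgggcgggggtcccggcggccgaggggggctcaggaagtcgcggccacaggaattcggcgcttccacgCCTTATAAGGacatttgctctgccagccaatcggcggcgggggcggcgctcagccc
A match describes the letters only, and a promoter with no match in this window may hold one elsewhere. Other motifs were searched in this and other lists, and most are not reported here. An NF-kB site was also in 2 of the same 10 promoters (20%), against 5.54% of tested genes. It was in 8 of 17 tested acute phase genes (47.06%). The antioxidant response element core was in 4 of 13 lower NRF2 targets (30.77%), against 13.77% of tested genes. It was also in 6 of 25 tested mitosis genes (24%), so a raised share was not particular to NRF2 targets. None of these shares was tested.

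Matricellular genes and targets of the YAP coactivator, which respond to matrix stiffness and actin tension, fell in 8 of 17 tested (0 rose), with a median of -0.30. Thbs1, the secreted adhesion modulator thrombospondin 1, ran from 76.0 to 97.0 CPM with ethanol and from 126 to 191 CPM without it, a log2 fold change of -0.88 (edgeR adjusted p = 1e-09, SE 0.089). Akap12, a scaffold for protein kinases A and C, ran from 82.4 to 114 CPM against 154 to 205 CPM, a log2 fold change of -0.93 (edgeR adjusted p = 1.76e-11, SE 0.082). For both genes the groups did not overlap. The receptor tyrosine kinase Axl fell by 0.53 and the kinase Nuak2 by 0.53, and Nuak2 was lowest in ethanol replicate 1 (53.9 CPM, against 81.4 to 96.8 CPM in the other ethanol wells).

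Collagens and other matrix genes moved the same way, with 18 of 27 tested lower and 1 higher and a median of -0.47. Fn1, fibronectin, fell from a median of 86.6 to 49.7 CPM (log2 fold change -1.07, edgeR adjusted p = 4.97e-08, SE 0.127). The fibrillar collagen genes Col1a2, Col1a1 and Col3a1 fell by 0.97, 0.80 and 0.89, and Tnc, the glial matrix protein tenascin C, by 0.80. Postn, periostin, was the lowest, at -1.26 (edgeR adjusted p = 0.00109, SE 0.267), with 1.60 to 8.11 CPM with ethanol and 10.1 to 17.0 CPM in the controls. The ethanol wells of all 5 of Fn1, Col1a2, Col1a1, Col3a1 and Tnc lay below every control. Of the pericyte and fibroblast markers 5 of 16 fell, the collagens Col1a1, Col1a2 and Col3a1 among them, and Dcn, decorin, was at -0.79 with overlapping wells (25.1 to 44.9 CPM against 31.6 to 82.4 CPM). The median over these markers was -0.10, and their part in the fall of contractile and matrix genes was not tested.

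Galectins, annexins and S100 proteins, small cytoplasmic and secreted proteins that bind sugars, membranes or calcium, fell in 10 of 17 tested and rose in 1. Lgals1, galectin 1, ran from 487 to 589 CPM with ethanol and from 1019 to 1199 CPM without it, a log2 fold change of -1.04 (edgeR adjusted p = 4.7e-17, SE 0.0606). Lgals3, galectin 3, ran from 30.0 to 54.9 CPM against 81.2 to 125 CPM, a log2 fold change of -1.17 (edgeR adjusted p = 1.61e-10, SE 0.111). S100a11 and Anxa3 fell by 0.69 each. Of the lysosomal genes 5 of 27 fell and 1 rose, and the 2 largest falls were in secreted or membrane glycoproteins of activated phagocytes, Spp1 (osteopontin, -0.94, edgeR adjusted p = 7.59e-11, SE 0.0872) and Gpnmb (-0.74, edgeR adjusted p = 9.31e-09, SE 0.0829). Ctsb, the protease cathepsin B, rose by 0.26, and Grn, progranulin, fell by 0.30, both with overlapping wells. With the low-gene share as a covariate 2 lysosomal genes fell and 4 rose. Ctsb did not pass without a filter on low counts (edgeR adjusted p = 0.0765), and Grn lost its call without ethanol replicate 6 or control replicate 4 (highest edgeR adjusted p = 0.0849).

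Secreted proteins of the acute phase and of inflammation changed in both directions, with 8 of 24 tested higher and 2 lower and a median of 0.23. Cxcl5, a neutrophil-attracting chemokine, had the largest rise of any gene the selection rule named. It ran from 81.4 to 138 CPM with ethanol (median 116) and from 33.5 to 56.1 CPM without it (median 39.9), a log2 fold change of 1.43 (edgeR adjusted p = 3.18e-12, SE 0.118). Chil1, a chitinase-like protein secreted by reactive astrocytes, ran from 601 to 739 CPM against 240 to 349 CPM, a log2 fold change of 1.12 (edgeR adjusted p = 5.16e-16, SE 0.0701). The protease inhibitor Serpina3n ran from 3192 to 3500 CPM against 2223 to 2513 CPM, a log2 fold change of 0.49 (edgeR adjusted p = 9.2e-09, SE 0.0542). For these 3 genes every ethanol well lay above every control well. Lcn2, lipocalin 2, an iron-carrier protein of reactive glia, rose by 0.39, from 4310 to 4868 CPM in the controls to 4984 to 6284 CPM with ethanol.

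Saa3, the acute phase protein serum amyloid A3, went the other way. It ran from 66.2 to 122 CPM with ethanol and from 179 to 246 CPM in the controls, a log2 fold change of -1.03 (edgeR adjusted p = 1.98e-10, SE 0.0987), and no wells overlapped. Of 14 complement genes only C3, the central component, passed (7.1%, against 9.67% of all tested genes). It ran from 948 to 1311 CPM with ethanol (median 1093) and from 452 to 618 CPM without it (median 548), a log2 fold change of 1.01 (edgeR adjusted p = 5.24e-15, SE 0.0681). Serping1, which inhibits the first step of complement activation, was at -0.07 (edgeR adjusted p = 0.739). Of 22 interferon and antigen presentation genes 4 changed (18.2%, against 9.67% of all tested genes). The peptide transporter Tap1 rose (0.52, edgeR adjusted p = 0.00445, SE 0.125), and 3 fell, Ifitm3 by 0.23 and the sparsely counted Ifit2 and Ifitm1, whose wells overlapped. With the low-gene share as a covariate 1 gene of the list rose and 1 fell. Ifit2 and Ifitm1 did not pass with the low-gene share as a covariate (edgeR adjusted p = 0.122 and 0.0938), and each lost its call in 3 of the 12 fits that left out a single well, with the highest edgeR adjusted p for Ifit2 without control replicate 5 (-0.71) and for Ifitm1 without control replicate 1 (-0.63).

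**Figure D3:**
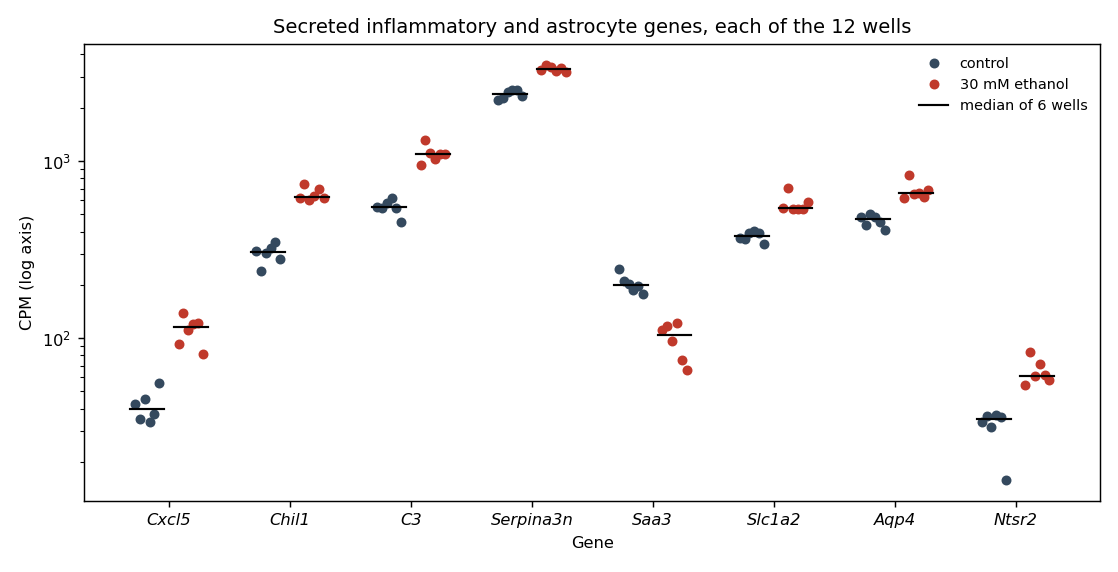
CPM on a log axis for 5 secreted inflammatory genes and 3 astrocyte genes in each of the 12 wells, with the median of each group as a bar. Saa3 is lower in every ethanol well, and the other 7 genes are higher in every ethanol well than in any control.

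Astrocyte genes rose in 10 of 22 tested and fell in 0, with a median of 0.17. Slc1a2, the main astrocyte glutamate transporter, ran from 534 to 705 CPM with ethanol and from 339 to 402 CPM in the controls, a log2 fold change of 0.62 (edgeR adjusted p = 4.31e-09, SE 0.0663). Aqp4, the water channel of astrocyte endfeet, ran from 623 to 838 CPM against 410 to 504 CPM, a log2 fold change of 0.56 (edgeR adjusted p = 4.97e-08, SE 0.0668). Replicate 2 was the highest ethanol well for both genes. Gja1, the gap junction protein connexin 43, rose by 0.51 and Ntsr2, a neurotensin receptor, by 1.03, with no overlap of the wells. Gfap, the intermediate filament of astrocytes, rose by 0.42 (edgeR adjusted p = 4.26e-05, SE 0.07), with 1632 to 2375 CPM with ethanol and 1222 to 1656 CPM in the controls. Aldh1l1, a folate enzyme used as a pan-astrocyte marker, was at 0.10 (edgeR adjusted p = 0.42). Without ethanol replicate 1 the list held 10 higher genes and a median of 0.17, and 9 of the 10 were the same genes. The 13 tested microglial genes had a median of 0.04, with 7 positive and 6 negative log2 fold changes. With the low-gene share as a covariate that median was -0.006. Of the 13 genes 2 rose (15.4%, against 3.02% of all tested genes), Cx3cr1 by 1.07 and Ly86 by 0.62. Both were counted sparsely and overlapped between the groups (5.59 to 16.1 against 2.70 to 7.82 CPM for Cx3cr1), and Ly86 lost its call with either covariate and in 7 of the 12 fits that left out a single well, with the highest p without ethanol replicate 3 (log2 fold change 0.53, edgeR adjusted p = 0.107).

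Myelin genes rose in 12 of 28 tested and fell in 0, with a median of 0.38, and ethanol replicate 1 stood above all other wells. Its summed level of the 28 genes was 14110 CPM, against 8538 to 8855 CPM in the other 5 ethanol wells and 6586 to 7691 CPM in the controls. Replicate 2, sequenced to a similar depth, lay with replicates 3 to 6, and the part of depth in these levels was not tested. Without replicate 1 the median was 0.17, and 10 of the 12 genes passed. Those that did not were Gpr37, a receptor of maturing oligodendrocytes, and Trf, transferrin, at 0.43 and 0.14 without it (edgeR adjusted p = 0.184 and 0.166). These 2 genes also lost their calls in 5 and 8 further fits that left out another well. With the low-gene share as a covariate 16 of the 28 myelin genes rose and 1 fell. Without ethanol replicates 1 and 2 the list held 11 higher genes and 1 lower gene.

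Mal, a proteolipid that sorts myelin membrane, ran from 229 to 273 CPM in ethanol replicates 2 to 6, was 495 CPM in replicate 1, and ran from 164 to 191 CPM in the controls. Its log2 fold change was 0.78 (edgeR adjusted p = 1.55e-06, SE 0.11), and 0.56 without replicate 1 (edgeR adjusted p = 1.33e-08). Mbp, myelin basic protein, ran from 2934 to 3143 CPM in replicates 2 to 6, was 5022 CPM in replicate 1, and ran from 2319 to 2645 CPM in the controls. Its log2 fold change was 0.44 (edgeR adjusted p = 0.000156, SE 0.0808), and 0.29 without replicate 1 (edgeR adjusted p = 6.71e-05). For both genes the ethanol wells lay above the controls with and without replicate 1, and the change was smaller without it. Mag and Mobp, both proteins of the myelin sheath, had log2 fold changes of 0.59 and 0.63, and 0.40 and 0.43 without replicate 1, still above every control. Nfasc, neurofascin, which anchors the myelin loops beside the node, was at 0.49 and 0.42. Cnp, an enzyme of non-compact myelin, and Myrf, the transcription factor of myelin genes, passed with and without replicate 1, although replicate 2 lay inside the range of the controls (919 CPM for Cnp and 52.0 CPM for Myrf). Mog, a glycoprotein of the outermost myelin, did not pass. It ran from 103 to 144 CPM in replicates 2 to 6 and from 105 to 148 CPM in the controls, and its log2 fold change was 0.15 (edgeR adjusted p = 0.508), or -0.08 without replicate 1.

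**Figure D4:**
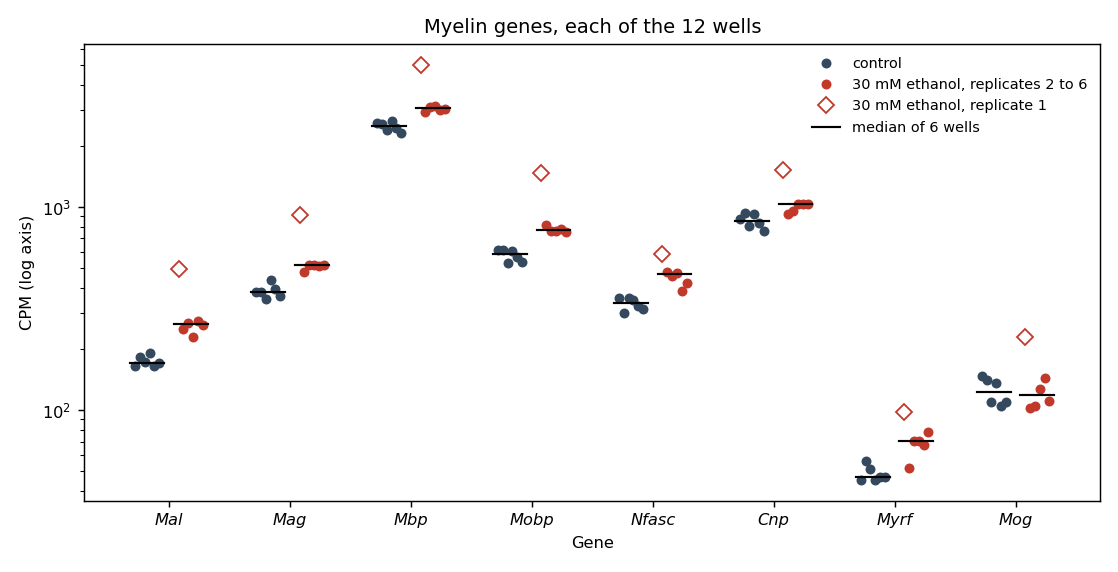
CPM on a log axis for 8 myelin genes in each of the 12 wells, with ethanol replicate 1 as an open diamond and the median of each group as a bar. Replicate 1 is the highest well for all 8 genes, and replicates 2 to 6 lie above every control for Mal, Mag, Mbp, Mobp and Nfasc but not for Cnp, Myrf and Mog.

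Of 13 genes of newly formed oligodendrocytes 1 rose, the membrane-bound ubiquitin ligase Rnf122 (0.41, edgeR adjusted p = 0.00285, SE 0.0958). That share, 7.7%, is near the 9.67% of all tested genes that changed. Sirt2, a tubulin deacetylase, was at 0.18 (edgeR adjusted p = 0.0758). With either covariate 5 of the 13 rose. Among 19 precursor genes 3 fell, Rlbp1 by 0.79, the lineage factor Nkx2-2 by 0.41 and its partner Olig1 by 0.25, and 2 rose, the matrix proteoglycan Bcan by 0.30 among them. Rlbp1 ran from 31.1 to 36 CPM with ethanol and from 48.2 to 66.2 CPM without it. Pdgfra, the growth factor receptor that defines precursors, was at -0.20 (edgeR adjusted p = 0.279). Olig1 and Nkx2-2 lost their calls in 4 and 10 of the 12 fits that left out a single well, with the highest edgeR adjusted p without control replicates 4 (-0.22) and 1 (-0.37). Of 14 thyroid hormone response genes 2 rose, the receptor Thra by 0.27 and the lipogenic regulator Thrsp by 0.45, both with overlapping wells. Thra did not pass without a filter on low counts (edgeR adjusted p = 0.0789), and Thrsp lost its call in 3 of the single-well fits, with the highest p without control replicate 2 (log2 fold change 0.36, edgeR adjusted p = 0.0873).

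Of 28 tested DNA replication genes 17 fell and 0 rose (median -0.46), and of 30 tested mitosis genes 21 fell and 0 rose (median -0.47), with a negative log2 fold change in all 30. With the low-gene share as a covariate 12 replication genes and 20 mitosis genes fell. The replication list held 14 lower genes and 1 higher with upper quartile scaling. Without ethanol replicate 1 it held 16 lower and 1 higher. Mcm6, a subunit of the replicative helicase, ran from 49.9 to 69.3 CPM with ethanol and from 80.7 to 119 CPM in the controls, a log2 fold change of -0.73 (edgeR adjusted p = 4.63e-07, SE 0.0967). Cdca8, a subunit of the chromosomal passenger complex, ran from 52.4 to 67.3 CPM against 97.0 to 125 CPM, a log2 fold change of -0.84 (edgeR adjusted p = 9.2e-09, SE 0.0927). The wells did not overlap for either gene. The DNA ligase Lig1, the ribonucleotide reductase subunit Rrm2 and the helicase subunit Mcm7 fell by 0.66, 0.64 and 0.57. The mitotic kinase Plk1, the spindle factor Tpx2 and the spindle protein Nusap1 fell by 0.70, 0.64 and 0.56. Ethanol replicate 2 was the highest ethanol well for Rrm2 (87.4 CPM) and Nusap1 (103 CPM), which were below the lowest control wells (103 and 105 CPM).

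The cell cycle homology region TTTGAA, an element of promoters that are shut in resting cells, was searched on both strands in the same 250 bases of the RefSeq promoters. It occurred in 8 of the 17 mitosis genes that fell and have an entry (47.06%), in 10 of 25 tested mitosis genes with an entry (40%), in 12.78% of tested genes and in 18.26% of all promoters. The promoters of the kinase Cdk1, the topoisomerase Top2a and the proliferation marker Mki67 are shown because each holds 2 matches, in capitals (TTCAAA where the match is on the other strand). They begin 71 and 15 bases before the start of Cdk1, 179 and 23 before that of Top2a, and 116 and 98 before that of Mki67.
Cdk1 (chr10:69352913-69353162, minus strand): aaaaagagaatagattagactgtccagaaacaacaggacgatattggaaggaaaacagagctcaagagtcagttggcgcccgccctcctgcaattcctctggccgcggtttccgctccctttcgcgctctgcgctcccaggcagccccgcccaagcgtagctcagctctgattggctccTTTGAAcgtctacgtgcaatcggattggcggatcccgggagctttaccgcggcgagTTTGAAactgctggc
Top2a (chr11:99024190-99024439, minus strand): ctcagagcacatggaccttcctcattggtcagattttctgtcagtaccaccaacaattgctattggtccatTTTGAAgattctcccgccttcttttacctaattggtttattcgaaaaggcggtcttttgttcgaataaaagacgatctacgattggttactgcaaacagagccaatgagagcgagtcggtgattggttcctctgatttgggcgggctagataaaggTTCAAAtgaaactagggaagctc
Mki67 (chr7:135716380-135716629, minus strand): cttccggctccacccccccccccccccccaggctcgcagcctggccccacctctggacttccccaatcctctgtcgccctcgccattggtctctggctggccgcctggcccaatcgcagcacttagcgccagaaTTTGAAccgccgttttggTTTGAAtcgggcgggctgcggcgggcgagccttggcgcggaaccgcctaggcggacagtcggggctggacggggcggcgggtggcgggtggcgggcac
These 3 genes fell by 0.53, 0.41 and 0.47 on the log2 scale, and for each the ethanol wells lay below every control well, for example 77.0 to 97.7 CPM against 110 to 154 CPM for Cdk1.

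Genes that act on cell cycle exit moved both ways, 6 of 20 higher and 3 lower. Ccnd1, cyclin D1, which starts the passage into S phase, fell by 0.51 (edgeR adjusted p = 6.65e-08, SE 0.0616), from a range of 424 to 483 CPM to one of 301 to 354 CPM. Ccng1 and Phlda3, both targets of p53, rose by 0.49 and 0.44 with no overlap of the wells. Cdkn1c, an inhibitor of cyclin-dependent kinases, fell by 0.94 (edgeR adjusted p = 0.00022, SE 0.177), and ethanol replicate 1 (21.0 CPM) lay above the lowest control (20.2 CPM).

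Targets of NRF2, the transcription factor of the antioxidant response, fell in 16 of 28 tested and rose in 2, with a median of -0.32. Their summed level was not lower, at a median of 14090 CPM with ethanol and 13860 CPM in the controls. Hmox1, heme oxygenase 1, ran from 33.0 to 67.7 CPM with ethanol (median 39.4) and from 77.2 to 121 CPM without it (median 97.6), a log2 fold change of -1.07 (edgeR adjusted p = 3.22e-08, SE 0.125). Txnrd1, thioredoxin reductase, ran from 342 to 414 CPM against 553 to 640 CPM, a log2 fold change of -0.63 (edgeR adjusted p = 2.32e-10, SE 0.0613). The wells of both genes were separate. The glutathione transferase Gsta4 fell by 0.64 and the esterase Esd by 0.73, and Esd was highest among ethanol wells in replicate 1 (215 CPM, against 150 to 172 CPM). Nqo1, a quinone reductase used as a standard NRF2 target, fell by 0.98 (edgeR adjusted p = 1.46e-07, SE 0.123).

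Of 12 tested genes that handle ethanol and aldehydes 1 fell and 0 rose, a share (8.3%) near the 6.65% of all tested genes that fell. Akr1a1, an aldehyde reductase, ran from 365 to 399 CPM with ethanol and from 444 to 523 CPM without it, a log2 fold change of -0.35 (edgeR adjusted p = 5.21e-05, SE 0.0589). Aldh2 was at 0.09 (edgeR adjusted p = 0.637, SE 0.101) and Cat, catalase, at 0.09 (edgeR adjusted p = 0.628, SE 0.0968), and the wells of both genes overlapped. Adh1 and Cyp2e1, the dehydrogenase and cytochrome P450 of hepatic ethanol oxidation, had 1 to 2 counts over the 6 wells of each group and were not tested.

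Amino acid and stress response genes under ATF4 fell in 10 of 20 tested and rose in 3. Atf4 itself fell by 0.44 (edgeR adjusted p = 1.96e-06, SE 0.0628), with 206 to 229 CPM with ethanol and 282 to 319 CPM in the controls. The amino acid transporter Slc7a5 fell by 0.61, the serine hydroxymethyltransferase Shmt2 by 0.58 and the glycyl-tRNA synthetase Gars by 0.40, each without overlap. Without ethanol replicate 1 the list held 10 lower genes and 1 higher gene. Of 20 endoplasmic reticulum chaperones 1 fell (5%, against 6.65% of all tested genes), the disulfide isomerase P4hb by 0.23, with overlapping wells. Of 18 heat shock genes 3 fell, Cryab by 0.34, Cct5 by 0.21 and Hspb1 by 0.52. Cct5, Hspb1 and P4hb lost their calls in 7, 5 and 4 of the 12 fits that left out a single well, with the highest edgeR adjusted p, 0.102, 0.0959 and 0.0751, without control replicate 1 for Cct5 and Hspb1 and without ethanol replicate 5 for P4hb. With the total count or the low-gene share as a covariate P4hb did not pass (edgeR adjusted p = 0.0681 and 0.151), and no chaperone of its list did.

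Cholesterol synthesis, which supplies the myelin membrane, had 8 of 23 tested genes lower and 0 higher, with a median of -0.22. Stard4, a sterol carrier, and Insig1, a brake on sterol synthesis, fell by 0.54 and 0.42, with no overlap of the wells. The pathway enzymes Lss and Nsdhl fell by 0.53 and 0.50. Hmgcs1, which makes HMG-CoA, the substrate of the rate-limiting reductase, was highest in ethanol replicate 1, at 587 CPM, against 386 to 427 CPM in the other ethanol wells and 456 to 512 CPM in the controls. Its log2 fold change was -0.16 (edgeR adjusted p = 0.183), and -0.26 without replicate 1 (edgeR adjusted p = 0.00143). Without that well 12 genes of the list fell, and with the low-gene share as a covariate 4 did.

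Transcripts of the mitochondrial genome rose in 7 of 8 tested, with a median of 0.34. The other 5 protein genes of the mitochondrial genome were listed at 0 in all 12 wells. mt-Cytb, cytochrome b, ran from 3181 to 3857 CPM with ethanol and from 2327 to 3048 CPM in the controls, a log2 fold change of 0.33 (edgeR adjusted p = 0.000537, SE 0.0661). The complex I subunits mt-Nd4, mt-Nd5 and mt-Nd3 rose by 0.37, 0.38 and 0.38. Of the nuclear genes of the respiratory chain 5 of 80 fell and 0 rose, a share near the 6.65% of all tested genes that fell, with a median of -0.10, the complex I subunits Ndufs4 and Ndufa5 at -0.26 and -0.20 among the lower. Ndufs4 lost its call without ethanol replicates 3 or 6 (highest edgeR adjusted p = 0.0601), and Ndufa5 in 7 of the 12 fits that left out a single well, with the highest p without ethanol replicate 5 (-0.18, edgeR adjusted p = 0.0996). Of 74 mitochondrial ribosomal protein genes 7 fell and 0 rose, among them Mrpl18, which lay below every control well (-0.32), and this share too is near that of all genes. With the low-gene share as a covariate 1 respiratory chain gene and 2 mitochondrial ribosomal protein genes fell. Without ethanol replicates 1 and 2 these lists held 20 and 13 lower genes. Mitochondrial copies in the nuclear genome and near-identical ribosomal protein copies can share reads, so these counts are uncertain.

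Cytosolic ribosomal protein genes fell in 47 of 76 tested and rose in 0, by small amounts, with a median of -0.20. Rpl12 ran from 434 to 546 CPM with ethanol and from 573 to 694 CPM in the controls, a log2 fold change of -0.37 (edgeR adjusted p = 5.48e-05, SE 0.0636). Rpl4 ran from 787 to 899 CPM against 972 to 1120 CPM, a log2 fold change of -0.31 (edgeR adjusted p = 0.000129, SE 0.0565). With the low-gene share as a covariate 28 genes fell. Proteasome subunits fell in 12 of 36 tested and rose in 0, the ATPase subunits Psmc3 and Psmc1 by 0.37 and 0.31, and 4 fell with that covariate.

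Glycolysis and hypoxia genes fell in 6 of 19 tested, with Pkm, the last enzyme of glycolysis, at -0.29 (984 to 1066 CPM against 1157 to 1346 CPM) and Adm, adrenomedullin, at -0.69 (edgeR adjusted p = 0.00423, SE 0.166). Tubulin and microtubule genes split, 4 of 25 higher and 7 lower. Tuba1c and Tubb6, tubulins of dividing and motile cells, fell by 0.70 and 0.55, and Stmn2, a neuronal tubulin-binding protein, by 0.71. Of 10 neuronal markers only Stmn2 passed (10%, against 9.67% of all tested genes), and Tubb3, a neuronal tubulin, was at 0.11 (edgeR adjusted p = 0.422). Among 13 insulin-like growth factor genes the binding proteins Igfbp3 and Igfbp2 fell by 0.56 and 0.42. Among 18 immediate early genes 2 changed (11.1%, near the 9.67% of all tested genes). Btg2, an antiproliferative factor, rose by 0.45 and Maff, a small leucine zipper factor, fell by 0.70.

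Of the genes chosen for the size of their change, several belong to no list. Capg, an actin-capping protein, fell by 1.33 (edgeR adjusted p = 6.74e-09, SE 0.146), from a range of 41.9 to 62.1 CPM to one of 14.5 to 28.3 CPM. Scg2, secretogranin 2, a protein of secretory granules, fell by 1.52 (edgeR adjusted p = 5.78e-08, SE 0.181), from a range of 27.1 to 39.1 CPM to one of 6.49 to 15.6 CPM. Emp1, a membrane protein of the claudin superfamily, fell by 1.25, and the sparsely counted Casq1, Gstm2 and Nptx2 fell by 1.40, 1.25 and 1.22. Among the genes that rose, Sema4d, a semaphorin carried by oligodendrocytes, was at 0.72 (edgeR adjusted p = 1.61e-05, SE 0.115), and at 0.56 without ethanol replicate 1. The synaptic vesicle protein gene Svop rose by 0.88, the RNA-binding protein gene Celf5 by 0.86 and the Notch-related ligand gene Dlk1 by 0.72. The 6 ethanol wells of Svop (36.9 to 54.0 CPM) lay above the controls (15 to 27.4 CPM). Gsto2 rose by 0.98. It lost its call in 4 of the 12 fits that left out a single well, with the highest edgeR adjusted p without control replicate 4 (log2 fold change 0.93, edgeR adjusted p = 0.0581).

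An interaction test over all 24 wells asked whether these changes differed from those of experiment 2. The control groups were separate, but dose and experiment cannot be told apart. Of 14655 genes tested 481 (3.28%) differed, 129 with the more positive change at 30 mM and 352 with the more negative one, and with upper quartile scaling 52.2% of 425 genes were more positive. Of the 1280 genes that passed at 30 mM, 1279 could be tested and 380 of these differed. The change at 30 mM enters both tests, so genes chosen by the first are more likely to differ in the second. Of the contractile genes 10 of 18 differed (median -0.12 at 10 mM), of the mitosis genes 16 of 30 (median 0.02 at 10 mM), of the mitochondrial genome transcripts 6 of 8 (median -0.07 at 10 mM) and of the cytosolic ribosomal protein genes 34 of 76 (median 0.05 at 10 mM). Of the myelin genes 2 of 28 differed (median 0.16 at 10 mM), and of the cholesterol synthesis genes 0 of 23 (median -0.15 at 10 mM).

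Among single genes, Chil1 had a log2 fold change of 1.12 at 30 mM and 0.10 at 10 mM (edgeR adjusted p of the difference = 1.05e-12). Lgals1 had -1.04 and -0.18 (edgeR adjusted p of the difference = 1.01e-11), and Myl9 -1.54 and -0.34 (edgeR adjusted p of the difference = 8.13e-09). Slc1a2 had 0.62 and -0.01 (edgeR adjusted p of the difference = 3.21e-06). The differences of these 4 genes were larger than the spread between wells. For Thbs1 the changes were -0.88 and -0.60 (edgeR adjusted p of the difference = 0.176), for Mag 0.59 and 0.36 (edgeR adjusted p of the difference = 0.371) and for Ntsr2 1.03 and 0.54 (edgeR adjusted p of the difference = 0.213). For these 3 genes no difference between the experiments was detectable, which does not show that the changes were alike. C3 rose in both experiments, by 1.01 and 0.41, and the difference passed (edgeR adjusted p of the difference = 9.44e-06).

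**Figure D5:**
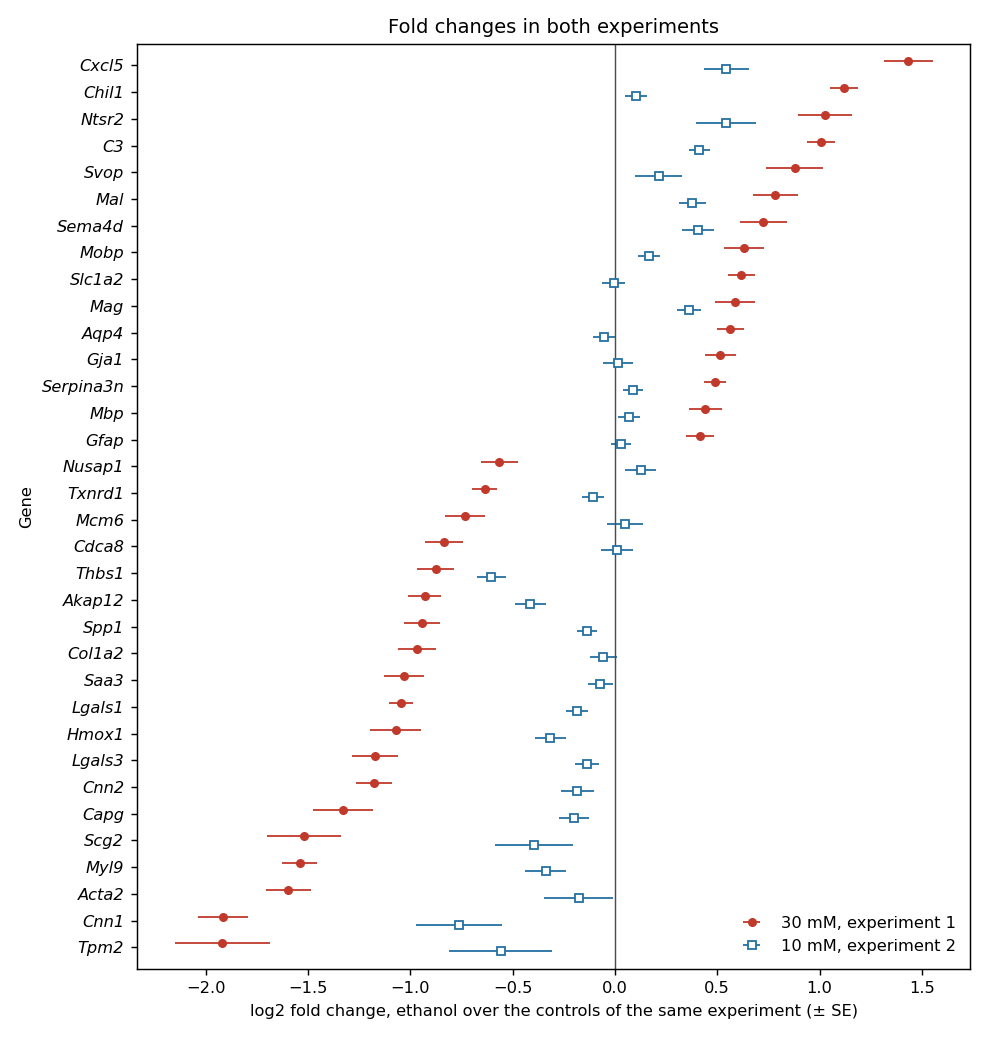
Log2 fold change of ethanol over the controls of the same experiment, with its SE, for genes at 30 mM in experiment 1 (filled circles) and 10 mM in experiment 2 (open squares). Chil1, Slc1a2 and Saa3 lie near 0 at 10 mM, while Cxcl5, C3, Mag and Thbs1 lie further from 0, on the same side as at 30 mM.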

How the data were processed

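The authors deposited raw counts per gene, whole numbers with a column for each of 24 wells and 55359 rows named by Ensembl identifiers. The submitters' processing notes name cutadapt 1.18, STAR and GRCm39, with no roles or settings, and the counter, the use of strand and the handling of PCR copies are not given in the sources used here. This leaves counts of overlapping, antisense or near-identical genes uncertain. Of the identifiers 52083 had a symbol and 3276 had none, and no row lacked a gene.

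The 12 wells were grouped by their labelled treatment and fitted alone with edgeR 4.0.16 (R 4.3.3): TMM scaling, filterByExpr at a minimum of 10 counts, the quasi-likelihood test and Benjamini-Hochberg adjustment over all 13235 genes, with a threshold of 0.05. CPM values use the TMM-scaled library sizes. The difference from the 10 mM experiment was a contrast in a fit of 24 wells. Totals, mitochondrial share and genes detected were compared by exact permutation of the 924 splits. No pair of wells within a group agreed within counting noise (chi-square per degree of freedom 1.16 to 2.88 over genes with at least 10 counts). Alternatives changed the scaling, filter, tool (DESeq2 1.42.0, limma 3.58.1 voom), threshold, covariates and wells.

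Named genes were, in each direction, the 12 largest changes that passed without overlap of wells (mean log2 CPM 3 or more), up to 4 members of each list with the smallest p (2 by level where fewer than 2 passed), 11 fixed genes and the 5 with the smallest p for the difference, and some of these genes are not reported here. Lcn2, Nqo1, Gpr37, Trf, Cdk1, Top2a, Mki67, the untested genes and the printed promoters were chosen after their values were seen. The comparison, lists and rules were chosen with earlier results of these data known. Tested on simulated data, the fit found 38.5% of genes given a log2 change of 0.5 (12965 genes tested) and 81% of those given 1 (12941 genes tested), and it called 0 genes where none was changed. Of the calls, 4.94% were false at a change of 0.5 and 2.99% at 1. The simulated counts were independent, with no split among the ethanol wells like that seen here. They therefore do not give the false share in the real wells. Promoters came from a RefSeq table of GRCm38.p6, matched by symbol, and their coordinates are not those of the counts' build.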

Additional observations from a re-analysis of the deposited data

Results flagged for a closer look

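A search for wells far from the other 5 of their group, by Dixon's test at the 95% level, was made in 270 sets of 6 values, those of the 132 named genes, the total count, the mitochondrial share and the genes detected in each group. It found 28, where chance flags about 1 in 20 groups, or 13.5. Genes that move together are not independent sets. The myelin genes among them were chosen with earlier results of these data known. The counts therefore cannot test whether any well stands apart by more than chance. Of the 28, 14 were in ethanol replicate 1. Myelin genes made up most of these, with replicate 1 at 495 CPM for Mal, 5022 for Mbp, 1466 for Mobp, 915 for Mag, 1521 for Cnp, 229 for Mog, 42.5 for Gpr37 and 499 for Trf, each above the other ethanol wells. The same well was high for the sterol synthesis gene Hmgcs1 (587 CPM), the lineage gene Sirt2 (911), the chaperone P4hb (411), the esterase Esd (215) and the neuronal tubulin Tubb3 (254). It was low for the kinase Nuak2 (53.9 CPM, against 81.4 to 96.8). Ethanol replicate 2 was high for the astrocyte genes Slc1a2 (705 CPM) and Aqp4 (838) and for the dividing-cell genes Rrm2 (87.4) and Nusap1 (103). Ethanol replicate 4 was high for Tpm2 (18.8 CPM) and Gstm2 (11.6). Among the controls, replicate 6 was low for Gfap (1222 CPM), Ntsr2 (15.8), Ctsb (830) and Gars (121) and high for Tpm2 (60.1). Control replicate 5 was low for Emp1 (17.6 CPM), and replicates 4 and 3 were high for Grn (293) and Ly86 (19.7).

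For the named genes that follow, the log2 fold change at 30 mM differed from that at 10 mM in the interaction test, and each value is the first minus the second. Dose and experiment cannot be told apart. Contractile and actin-linked genes were more negative at 30 mM, by Acta2 -1.43, Tpm2 -1.37, Myl9 -1.21, Cnn1 -1.16, Capg -1.14, Cnn2 -1.01 and Tagln2 -0.83. Among matrix, adhesion and secreted genes the differences were Scg2 -1.14, Fn1 -0.95, Col1a2 -0.92, Col1a1 -0.79, Tnc -0.71, Axl -0.59, Akap12 -0.53 and Nuak2 -0.50. Galectins and related genes differed by -1.05 for Lgals3, -0.87 for Lgals1, -0.82 for Spp1, -0.64 for Gpnmb, -0.63 for Anxa3 and -0.51 for S100a11. The dividing-cell genes were at Cdca8 -0.86, Mcm6 -0.79, Plk1 -0.70, Nusap1 -0.70, Tpx2 -0.65, Tuba1c -0.65, Lig1 -0.61, Cdk1 -0.58, Mki67 -0.54, Tubb6 -0.51, Mcm7 -0.50, Top2a -0.47 and Ccnd1 -0.35, with the inhibitor Cdkn1c at -1.22.

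Redox and amino acid genes differed by -0.77 for Hmox1, -0.70 for Shmt2, -0.65 for Slc7a5, -0.54 for Txnrd1, -0.52 for Esd, -0.47 for Gsta4, -0.46 for Gars and -0.36 for Atf4. Smaller negative differences were those of the ribosomal, proteasomal and metabolic genes Mrpl18 -0.44, Psmc3 -0.41, Rpl12 -0.41, Rpl4 -0.37, Psmc1 -0.30 and Pkm -0.26, of the lineage factor Olig1 -0.37 and of the chaperones Cryab -0.33 and P4hb -0.32. The acute phase gene Saa3 was at -0.97, while other secreted genes were more positive at 30 mM, Chil1 by 1.00, Cxcl5 by 0.88, C3 by 0.58, Lcn2 by 0.48 and Serpina3n by 0.39. Astrocyte genes were more positive by 0.61 for Slc1a2, 0.60 for Aqp4, 0.48 for Gja1 and 0.37 for Gfap, and the mitochondrial transcripts by 0.47 for mt-Nd3, 0.42 for mt-Nd4 and 0.40 for mt-Cytb. The remaining positive differences were those of Dlk1 0.89, Svop 0.65, the myelin genes Mobp 0.46 and Mbp 0.36, Ccng1 0.39 and Ctsb 0.30.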

How the results depend on the processing

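The count of 1280 genes at 30 mM moved by over 1.5 times at an adjusted p of 0.01 (641), with a minimum log2 fold change of 0.5 (444) and without ethanol replicates 1 and 2 (2432 genes, 1142 of them shared and 1065, or 43.8%, higher), an alternative chosen after the data were seen. Without these 2 wells lower genes went from 5 to 20 in the nuclear respiratory chain list, 7 to 13 for mitochondrial ribosomal proteins, 8 to 14 for cholesterol synthesis, 12 to 21 for the proteasome, 3 to 7 for heat shock and 3 to 6 for interferon. They went from 47 to 60 for cytosolic ribosomal proteins and from 6 to 9 for glycolysis and hypoxia. The count of genes at 30 mM ran from 953 to 1563 when single wells were left out. It was 954 in DESeq2, 1175 in limma voom and 1208 with a replicate block. For the difference between experiments the block gave 461 genes, 439 of them among the 481. The replicate numbers did not pair the wells (correlations of same-numbered wells from -0.181 to 0.249, and 1 of 6 wells closest to its own number). The 481 genes that differed between the experiments became 307 with the total count and 229 with the low-gene share as a covariate, 173 at an adjusted p of 0.01, 273 with the minimum change, 1496 without replicates 1 and 2, and 329 to 759 with single wells left out, 759 without ethanol replicate 1 and 723 without replicate 2; the cause was not tested. For the differences between groups, leaving out single wells gave -215000 to -97190 for the total count, 0.636 to 0.878 percentage points for the mitochondrial share, and 72.2 to 157 for genes detected. Of 3291 refits of the 132 named genes, 3168 kept direction and call, 113 lost the call, 6 gained it and 4 changed sign, none of these 4 in a gene that had passed. The sign changes were Mog without ethanol replicate 1 (-0.084, the lowest of its values with single wells left out, which reached 0.221), and Mog (-0.042), Cat (-0.027) and Aldh2 (-0.048) without replicates 1 and 2. Depth limits genes near the floor of 1.65 to 2.46 CPM, such as Postn and Casq1, whose lowest ethanol wells held 1.60 and 2.39 CPM.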
